A study of Homo sapiens with 12 samples.

Results

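LAMA3, LAMB3, LAMA5, COL7A1 and ITGB4 encode 3 laminin chains, type VII collagen and the beta4 integrin chain, which together anchor epithelial cells to the basement membrane. They are 5 of the 770 genes measured with the NanoString nCounter PanCancer Progression panel, in which barcoded probes are counted without amplification, in HCT-116. HCT-116 is an established line of human colorectal carcinoma cells with epithelial morphology. The 5 genes were chosen by name, with their group means, fold changes and p-values in these tables already known, so those values are given as a description and not as tests. The 12 samples form 4 groups of 3: cells exposed for 24 h to heteronemin plus tetrac (the combination), to heteronemin, to tetrac, and control cells. Heteronemin is a terpenoid natural product of marine sponges. Tetrac is a deaminated analogue of the thyroid hormone thyroxine. No dose, passage or vehicle is given in the sources used here, and all 4 groups are of this 1 line. The study's title asks whether the compounds restrain proliferation through EGF receptor signalling, and the panel bears on it only at the level of transcripts.

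Laminins are cross-shaped trimers of an alpha, a beta and a gamma chain. The alpha3 chain (LAMA3) and the beta3 chain (LAMB3) are part of laminin-332, the laminin on which epithelia such as skin, airway and gut adhere and migrate, and the alpha5 chain (LAMA5) belongs to laminins of mature basement membranes. Integrin alpha6beta4, of which ITGB4 encodes the beta chain, binds laminin-332 at the hemidesmosome and links it through plectin and dystonin to keratin filaments. Collagen VII (COL7A1) forms the anchoring fibrils that tie the basement membrane to the matrix beneath, and it binds laminin-332. In colorectal carcinoma, laminin-332 is known from the cells at the invading edge of the tumour. Inherited loss of LAMA3, LAMB3 or ITGB4 causes junctional epidermolysis bullosa, and loss of COL7A1 the dystrophic form.

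The values are the authors' means of normalized counts, 1 per gene and group. No value of a single sample was analysed here, so no SD or interval can be given, and whether the samples of a group overlap cannot be stated. The lowest mean in any group was 33, which is taken as a floor, and all 5 genes lay above it in all 4 groups. The control column was identical in the 3 tables, so the 3 comparisons share their control samples. Of 9 measured epithelial markers, all were above the floor in every group. EPCAM stood at 1520 under the combination, 1402.5 after heteronemin, 1581 after tetrac and 1814 in control. KRT7, the lowest of the 9 in every group, stood at 60.5, 83.7, 41.7 and 34.1 in the same order, so in control it was close to the floor. The 9 summed to 8289, 7354, 7314 and 8018 normalized counts. The 8 stromal, 5 endothelial and 2 blood markers ranged from 33 to 144.3 in any group. Among the 356 genes whose 4 group means averaged at least 100, the well-measured genes, the median log2 ratio against control was -0.15 under the combination, -0.19 after heteronemin and -0.11 after tetrac.

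LAMB3 was the gene of the 5 that differed most between the combination and every other group. Its mean was 363.2 normalized counts under the combination, 215.5 after heteronemin, 86.2 after tetrac and 101.8 in control. Both groups that received heteronemin were thus above control, and tetrac alone was not. The ratio to control was 3.57-fold under the combination and 2.12-fold after heteronemin, with p printed as 0 and as 0.01 in the authors' deposited table, where 0 stands for any value below 0.005. After tetrac LAMB3 was 1.18-fold lower than control, with p = 0.44 in the authors' deposited table. Of the 770 genes, LAMB3 ranked 4 from the top by its log2 ratio under the combination, 80 after heteronemin and 747 after tetrac. The 51 genes nearest to LAMB3 in control level had median log2 ratios of 0.09, 0.29 and 0.07 in the same order. LAMB3 ranked 2, 5 and 49 from the top of those 51.

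LAMA3, the alpha chain partner of LAMB3, was higher in both heteronemin groups by about the same factor. Its mean was 114.1 normalized counts under the combination, 115.6 after heteronemin, 57.7 after tetrac and 46.1 in control, a control level close to the floor. The ratio to control was 2.48-fold under the combination, 2.51-fold after heteronemin and 1.25-fold after tetrac. The p-values in the authors' deposited table were printed as 0 for the combination, 0.01 for heteronemin and 0.40 for tetrac. The 51 genes nearest to LAMA3 in control level, which spanned 36.7 to 57.8 normalized counts in control, had a median log2 ratio of 0.41 under the combination, 0.84 after heteronemin and 0.21 after tetrac. LAMA3 itself had log2 ratios of 1.31, 1.33 and 0.33 in the same order and ranked 3, 3 and 20 from the top of those 51.

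COL7A1 gave almost the same picture as LAMA3. Its mean was 107.6 normalized counts under the combination, 111.1 after heteronemin, 63.1 after tetrac and 51.1 in control. Its ratio to control was 2.10-fold, 2.17-fold and 1.23-fold for the combination, heteronemin and tetrac, with p printed as 0.02, 0 and 0.62 in the authors' deposited table. Among the 51 genes nearest in control level it ranked 5 from the top under the combination, 9 after heteronemin and 19 after tetrac. COL7A1 stood 0.73, 0.35 and 0.11 above the median log2 ratio of those genes. Collagen VII is also made by fibroblasts, and every sample is labelled as the HCT-116 line alone. The summed level of the 8 stromal markers was 431 normalized counts under the combination, 541.2 after heteronemin, 374.2 after tetrac and 299.2 in control. The 5 endothelial markers summed to 234.2, 268.1, 207.7 and 168 in the same order, and the 2 blood markers to 85.2, 88.4, 81.9 and 66. In control 5 of the stromal, 3 of the endothelial and 2 of the blood markers were at the floor. The part of this shift of genes near the floor in the COL7A1 and LAMA3 values was not tested.

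LAMA5, the alpha chain of another laminin family, differed little between groups. Its mean was 329.3 normalized counts under the combination, 286.4 after heteronemin, 266.9 after tetrac and 292.8 in control. The combination was 1.12-fold above control, heteronemin 1.02-fold below it and tetrac 1.10-fold below it. In the authors' deposited table the p-values were 0.01, 0.78 and 0.03 in that order, so the called differences of LAMA5 are also the smallest called ones of the 5 genes. The sign after heteronemin rests on the scaling, since the log2 ratio of -0.03 became 0.05 with the housekeeping genes centred on 0.

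ITGB4, the receptor chain, moved opposite to LAMA3, LAMB3 and COL7A1 in both heteronemin groups. After tetrac ITGB4 and LAMB3 were both lower than control, with log2 ratios of -0.22 and -0.24. Its mean was 776.4 normalized counts under the combination, 809.5 after heteronemin, 1115 after tetrac and 1299 in control. All 3 treated means were below control, and those of both heteronemin groups lay close together. The ratio was 1.67-fold lower under the combination, 1.60-fold lower after heteronemin and 1.17-fold lower after tetrac, with p printed as 0.02, 0 and 0.19 in the authors' deposited table. Genes of this level were lower in general: the 51 genes nearest in control level had a median log2 ratio of -0.25 under the combination, -0.37 after heteronemin and -0.16 after tetrac. ITGB4, at -0.74, -0.68 and -0.22, ranked 2, 3 and 8 from the bottom of those 51. RNA was measured in bulk, where fewer cells with a transcript and less transcript per cell cannot be told apart.

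**Figure D1:**
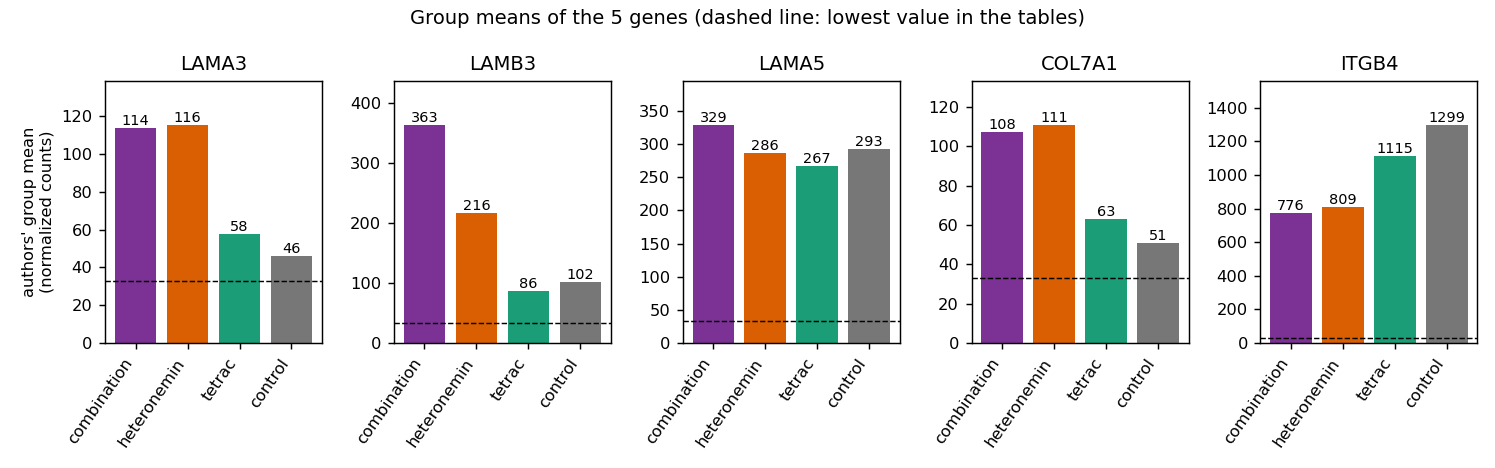
Bars show the authors' group mean of normalized counts (linear axis from 0, a separate scale per gene) for LAMA3, LAMB3, LAMA5, COL7A1 and ITGB4 under the combination, heteronemin, tetrac and control, with a dashed line at the lowest value in the tables, 33. LAMB3 is highest under the combination at 363.2, LAMA3 and COL7A1 are about level in both heteronemin groups, and ITGB4 is highest in control at 1299.

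With each table centred on the median of the well-measured genes, the log2 ratios of LAMB3 were 1.98 under the combination, 1.27 after heteronemin and -0.14 after tetrac. LAMA3 then stood at 1.45, 1.52 and 0.43, and COL7A1 at 1.22, 1.31 and 0.41. LAMA5 stood at 0.32, 0.16 and -0.03, and ITGB4 at -0.60, -0.49 and -0.12. Relative to that median, LAMB3, LAMA3 and COL7A1 were thus high and ITGB4 low in both heteronemin groups. LAMA3 and COL7A1 are themselves not among the well-measured genes. Against the median of the 51 genes nearest in control level, LAMA3 stood only 0.89 higher under the combination and 0.49 higher after heteronemin. COL7A1 stood 0.73 and 0.35 higher in the same order.

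Counted at the authors' unadjusted p under 0.05, 4 of the 5 genes were higher and 1 lower under the combination, against 8.16% of 686 tested genes called higher and 14.1% called lower. After heteronemin 3 were higher and 1 lower, against 11.2% and 15.9% of 704 tested genes. After tetrac 0 were higher and 1, LAMA5, was lower, against 0.28% and 0.98% of 714 tested genes. Since these p-values were part of the choice of genes, nothing is read from the counts. Benjamini-Hochberg adjustment was run over each whole table of the authors' deposited p-values as printed. LAMA3 and LAMB3 passed for the combination, COL7A1 and ITGB4 for heteronemin, and 0 of the 5 for tetrac. Those passing were exactly the members with p printed as 0, which the adjustment leaves at 0. A printed 0.01 already gave an adjusted p of 0.0754 for the combination and 0.0828 for heteronemin, so passing rested on the rounding. Among all tested genes, 48 of 686 passed for the combination and 41 of 704 for heteronemin. With the largest p that the rounding allows, 0 of the 5 passed, and their smallest adjusted p was 0.0715 for the combination and 0.0859 for heteronemin.

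**Figure D2:**
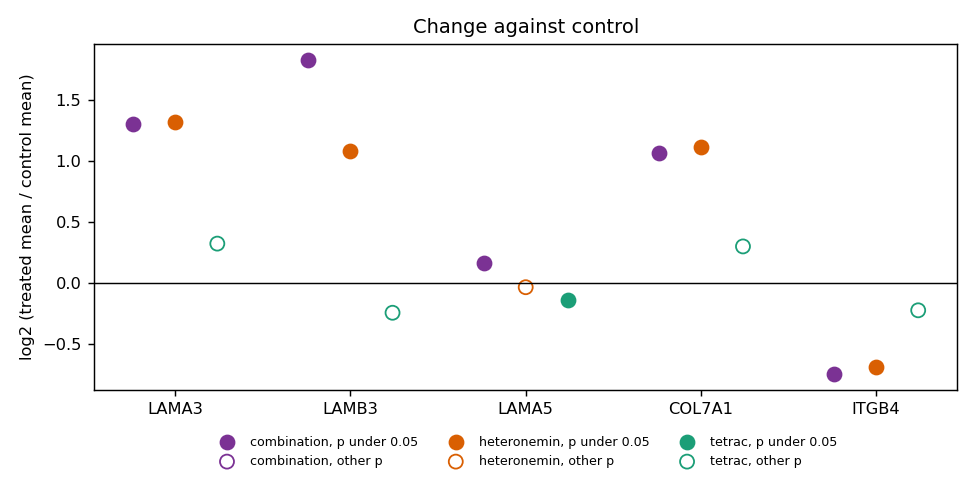
Points show the log2 ratio of treated to control means for each of the 5 genes, filled where the authors' deposited p was under 0.05 and open otherwise. LAMB3 separates the combination (1.83) from heteronemin (1.08), while for LAMA3, COL7A1 and ITGB4 the points of both groups nearly coincide.

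**Figure D3:**
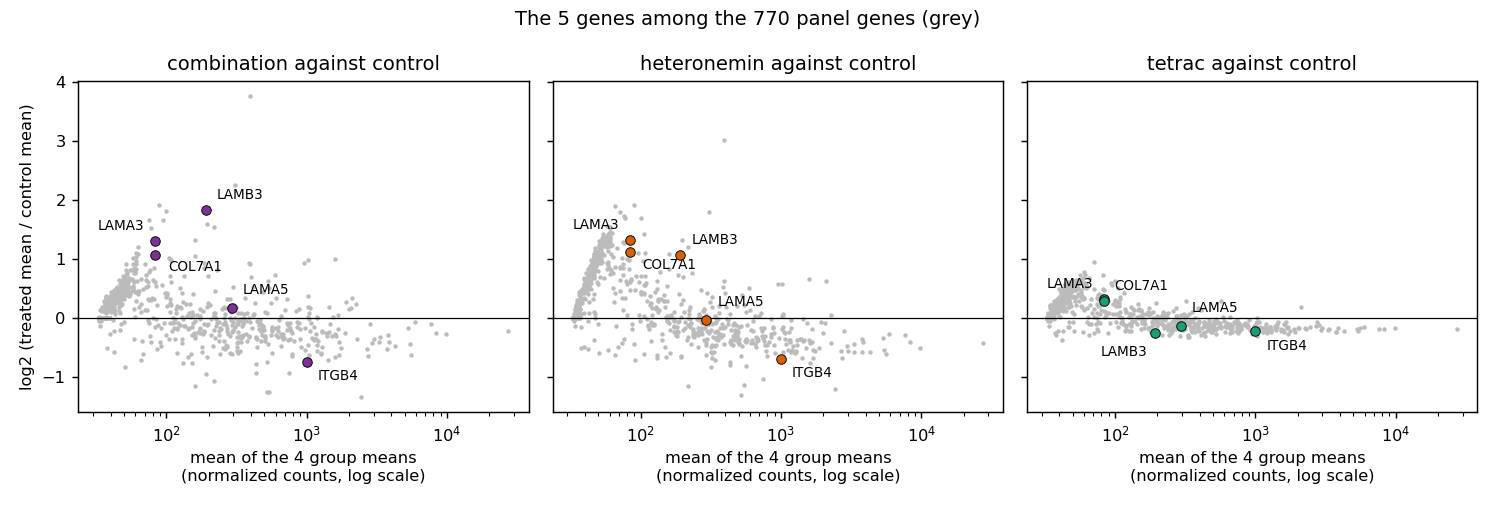
The log2 ratio against control (vertical axis) is plotted against the mean of the 4 group means (horizontal log axis, normalized counts) for the 770 panel genes in grey, with the 5 genes named, for the combination, heteronemin and tetrac. LAMA3 and COL7A1 lie at mean levels of 83.3 and 83.2, beside the low-level genes that were higher in all 3 tables. LAMB3 at 191.7 lies above most genes of like mean level in both heteronemin groups. That mean includes the treated values of LAMB3, whose control mean was 101.8.

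The upstream sequences of LAMA3 and LAMB3 are shown because these genes encode chains of 1 laminin yet parted under the combination, and JUN, a subunit of the AP-1 factor whose recognition motif is TGANTCA, was measured on the same panel. JUN had a mean of 569.5 normalized counts under the combination, 418.9 after heteronemin, 125.9 after tetrac and 119.4 in control, 4.77-fold above control under the combination and 3.51-fold after heteronemin. RefSeq promoter entries on GRCh38.p14 were found for 4 of the 5 genes by symbol. For each, the 250 bases before the start are considered, 5′ to 3′ on the gene's strand, in lower case with TGANTCA matches in capitals. LAMA3 has 1 entry (chr18:23872770-23873019, + strand), whose start lies 183567 bases inside the annotated gene, which is known to have separate starts for a long and a short alpha3 chain:
LAMA3: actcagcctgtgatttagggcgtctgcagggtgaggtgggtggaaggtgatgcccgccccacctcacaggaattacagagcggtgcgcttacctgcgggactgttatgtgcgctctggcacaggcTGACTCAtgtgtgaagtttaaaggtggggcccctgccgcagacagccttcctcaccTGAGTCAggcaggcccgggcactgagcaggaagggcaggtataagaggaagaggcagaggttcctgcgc
LAMB3 has 3 entries, of which the outermost (chr1:209652426-209652675, - strand) and the innermost (chr1:209651375-209651624, - strand), 1051 bases further into the gene, are given:
LAMB3 outermost start: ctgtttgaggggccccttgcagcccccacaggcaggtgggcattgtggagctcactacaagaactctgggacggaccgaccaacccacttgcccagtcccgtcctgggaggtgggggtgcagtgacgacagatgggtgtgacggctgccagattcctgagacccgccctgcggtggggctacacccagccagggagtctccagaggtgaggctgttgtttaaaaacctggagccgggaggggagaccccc
LAMB3 innermost start: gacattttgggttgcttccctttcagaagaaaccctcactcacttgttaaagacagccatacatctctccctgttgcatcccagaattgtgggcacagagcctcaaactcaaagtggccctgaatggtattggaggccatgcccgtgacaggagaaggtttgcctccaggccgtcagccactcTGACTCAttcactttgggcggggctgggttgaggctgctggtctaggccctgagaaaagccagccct
COL7A1 (chr3:48595330-48595579, - strand) is given as the anchoring fibril gene whose values lay nearest to those of LAMA3 among the 5 genes:
COL7A1: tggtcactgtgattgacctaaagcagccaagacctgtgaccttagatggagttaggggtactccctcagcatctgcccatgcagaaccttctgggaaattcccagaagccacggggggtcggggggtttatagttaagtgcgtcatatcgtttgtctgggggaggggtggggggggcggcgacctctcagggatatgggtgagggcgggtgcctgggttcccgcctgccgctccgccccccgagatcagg

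The LAMA3 window held 2 matches, TGACTCA beginning 125 bases and TGAGTCA beginning 69 bases before the start. The innermost LAMB3 window held 1, TGACTCA beginning 67 bases before the start, and the other LAMB3 windows, the COL7A1 window and the LAMA5 window held 0. TGANTCA reads the same on both strands, and it occurred in 6.57% of the 35116 RefSeq promoter windows of this length and in 7.30% of the 904 windows of panel genes. The GC box GGGCGG, searched on both strands, had 5 matches in the LAMA5 window, 3 in the COL7A1 window and 1 in each of the LAMA3 and LAMB3 windows, and it occurred in 42.6% of all windows. The GC content was 82.8% for LAMA5, 60.8% for COL7A1, 60.4% for LAMA3 and from 54% to 64% for the LAMB3 windows, against a median of 58% for all. A match describes letters and was not tested as a binding site.

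Set directly against heteronemin alone, the combination had 1.69-fold more LAMB3, the highest such ratio of the 770 genes. LAMA3, COL7A1 and ITGB4 had ratios of 0.99, 0.97 and 0.96 between the combination and heteronemin, and LAMA5 had 1.15. The deposited tables hold no test between treatments, so these ratios are descriptions of group means. Over the 356 well-measured genes, the middle 90% of log2 ratios of the combination over heteronemin ran from -0.30 to 0.31, and LAMB3 stood at 0.75. Set against tetrac, the combination had 4.21-fold more LAMB3, 1.98-fold more LAMA3, 1.70-fold more COL7A1 and 1.23-fold more LAMA5, and its ITGB4 was 0.70 of the tetrac mean.

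On the log2 scale, effects that simply add would give the combination the sum of the single log2 ratios. For LAMB3 the combination had a log2 ratio of 1.83, against a sum of 0.84 for the single treatments, a difference of 0.99 that ranked 1 of the 770 genes. The difference was 0.33 for LAMA5 and 0.16 for ITGB4, both inside the middle 90% of the 356 well-measured genes, from -0.47 to 0.46. LAMA3 and COL7A1 fell short of the sum by about the same amount, with differences of -0.34 and -0.35. Over all 770 genes the middle 90% ran from -1.20 to 0.40. Genes that lay on the floor in control and above it numbered 195 under the combination, 213 after heteronemin and 223 after tetrac. The difference from the sum also contains the control mean, and it has no test here.

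**Figure D4:**
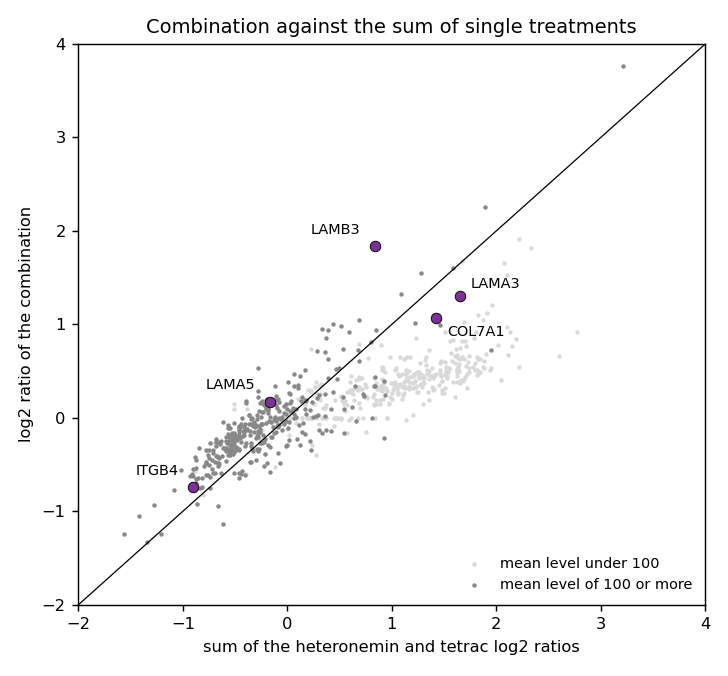
Each point is 1 of the 770 genes, with the sum of its heteronemin and tetrac log2 ratios on the horizontal axis, its log2 ratio under the combination on the vertical axis and a line where they are equal. Darker points have a mean level of 100 or more. LAMB3 lies 0.99 above the line, LAMA3 and COL7A1 lie 0.34 and 0.35 below it.

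The laminin chains, and COL7A1 as the anchoring fibril gene, were then set against the laminin receptor chain ITGB4. The difference between the log2 ratio of each and that of ITGB4 was used, because the levels of different probes cannot be compared with each other. Relative to ITGB4, LAMB3 was 5.97-fold up on control under the combination, 3.40-fold after heteronemin, and it stood at 0.99 of the control ratio after tetrac. LAMA3 was 4.14-fold, 4.03-fold and 1.46-fold up in the same order, and COL7A1 3.52-fold, 3.49-fold and 1.44-fold. LAMA5, which itself hardly moved, was 1.88-fold, 1.57-fold and 1.06-fold up relative to ITGB4. In both heteronemin groups all 4 genes thus gained on the receptor chain, and for LAMA5 most of that gain came from ITGB4 being lower. By its log2 ratio ITGB4 ranked 13 from the lowest of the panel genes under the combination and 14 after heteronemin. Nearly every panel gene therefore gained on it, and a gain alone is not particular to these 4 genes. The integrin chain ITGB1 gained 1.97-fold and 1.66-fold on ITGB4 in the same order, and ITGA3 1.84-fold and 1.60-fold. For ITGA6 the gain was 1.78-fold and 1.48-fold, and for ITGA2 1.26-fold and 1.01-fold. Part of the gain of LAMA3, LAMB3, LAMA5 and COL7A1 goes with level, since low-level genes were higher and high-level genes lower in general. With each gene set against the median of its 51 neighbours in control level, a setting added after seeing the data, the gain over ITGB4 under the combination was 4.71-fold for LAMB3, 2.61-fold for LAMA3, 2.33-fold for COL7A1 and 1.70-fold for LAMA5. After heteronemin it was 2.15-fold, 1.75-fold, 1.58-fold and 1.30-fold in the same order. The neighbours of LAMA3 had themselves gained 1.21 on those of ITGB4 on the log2 scale after heteronemin, and those of COL7A1 1.14, of 2.01 and 1.80 in all. The tetrac values rest on ratios of LAMA3, LAMB3, COL7A1 and ITGB4 that were not called against control.

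**Figure D5:**
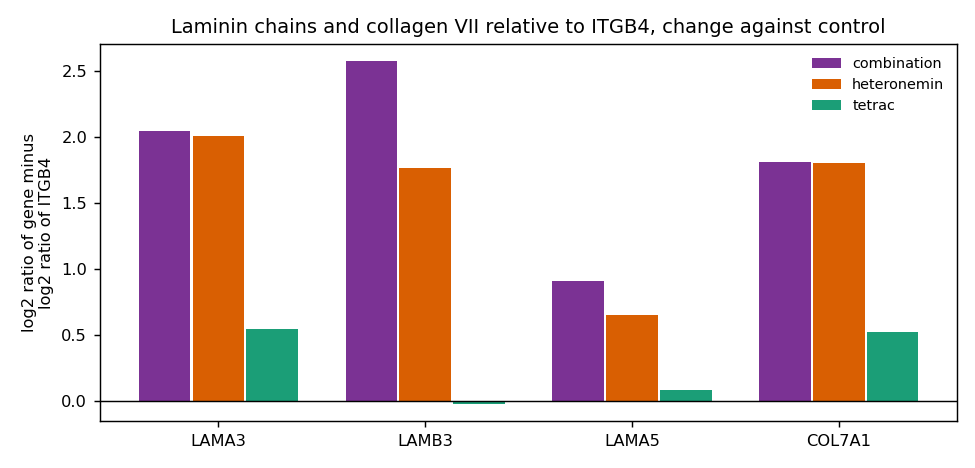
Bars show the log2 ratio against control of each of LAMA3, LAMB3, LAMA5 and COL7A1 minus that of ITGB4 (axis from 0), for the combination, heteronemin and tetrac. The tallest bar is that of LAMB3 under the combination (2.58), and after tetrac LAMB3 lies at -0.02.

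ITGA6, which pairs with the beta4 chain, had means of 558.6 normalized counts under the combination, 482.9 after heteronemin, 503.8 after tetrac and 525.3 in control, with p = 0.33, 0.37 and 0.66 in the authors' deposited table. ITGA3, whose product with the beta1 chain is another receptor of laminin-332, had log2 ratios of 0.13, -0.00 and -0.10, and ITGB1 of 0.24, 0.05 and -0.16, and neither was called in any table. The log2 ratio of ITGB4 minus that of ITGA6 was -0.83 under the combination, -0.56 after heteronemin and -0.16 after tetrac, a difference that has no test here. ITGA2, a chain of a collagen and laminin receptor, fell 1.32-fold under the combination and 1.59-fold after heteronemin, with p printed as 0 and 0.03 in the authors' deposited table, and had a log2 ratio of 0.05 after tetrac. After heteronemin its log2 ratio was -0.67, against -0.68 for ITGB4, and under the combination the log2 ratio of ITGB4 minus that of ITGA2 was -0.34.

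Of the 8 other measured laminin receptor genes, 1 was called higher and 2 lower under the combination. After heteronemin 1 was called higher and 3 lower, and after tetrac 0 were called. Over all tested genes 8.16% were called higher and 14.1% lower under the combination, and 11.2% and 15.9% after heteronemin. The shares after tetrac were 0.28% and 0.98%, and nothing is read from counts over 8 genes. Dystroglycan, DAG1, which binds laminin outside hemidesmosomes, fell to 379.9 normalized counts under the combination and 393.1 after heteronemin, against 530.4 in control. Syndecan-4, SDC4, a heparan sulphate co-receptor of matrix proteins, rose to 675 under the combination and 556.7 after heteronemin, against 474.2 in control. ITGA1 fell to the floor after heteronemin, against 46.2 in control, and ITGA7 was not called in any table. The median log2 ratio of the 9 receptor genes with ITGB4 was -0.07 under the combination, -0.12 after heteronemin and -0.16 after tetrac, beside 0.09, 0.11 and 0.02 over all 770 genes. Of these 9 genes, 7 were well-measured, all but ITGA1 and ITGA7. The middle log2 ratio of the 7 was 0.09 under the combination and -0.12 after heteronemin, both of ITGA6, and -0.10 after tetrac, of ITGA3. The median over all well-measured genes was -0.15, -0.19 and -0.11, below the middle of the 7 in both heteronemin groups and about level with it after tetrac.

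DST, which encodes dystonin, the plakin that holds keratin filaments at the hemidesmosome in its epithelial form, was lower together with ITGB4. It fell to 460.4 normalized counts under the combination and 433 after heteronemin, against 578.5 in control, with p printed as 0.01 and 0 in the authors' deposited table, and its mean of 530.8 after tetrac was not called. Its log2 ratios were -0.33 under the combination and -0.42 after heteronemin, where the median of the well-measured genes was -0.15 and -0.19. DST was not set against genes of its own control level. DST is a large gene with neuronal and muscle forms too, and which form the probe counts is not given in the sources used here. KRT14, a basal keratin of stratified epithelia, was at the floor in all 4 groups. Of the 4 other measured genes of the anchoring complex, 3 had a p-value, and of these 0 rose and 1, DST, fell in both heteronemin groups. Over all tested genes 8.16% were called higher and 14.1% lower under the combination, and 11.2% and 15.9% after heteronemin, so nothing is read from the count.

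LAMC1, the common gamma1 chain that pairs with LAMA5, had means of 308.9 normalized counts under the combination, 288 after heteronemin, 266.1 after tetrac and 286.3 in control and was not called in any table. LAMA4, at the floor in control, had means of 40.5, 66 and 45.9 in the treated groups in that order and was not called, and LAMA1 was at the floor in all 4 groups. Of 9 other basement membrane genes, 4 (COL4A1, COL4A2, COL4A6 and NID2) were at the floor throughout. COL18A1, the precursor of endostatin, and fibulin-1, FBLN1, each fell 1.52-fold under the combination, the authors' deposited table giving p = 0.02 and 0.03. They were 1.24-fold and 1.39-fold lower after heteronemin without being called. The heparan sulphate proteoglycans HSPG2 (perlecan) and AGRN (agrin) had log2 ratios between -0.23 and 0.20 and were not called.

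Proteases that trim laminin-332 or act at the cell surface were measured too. MMP14, a membrane metalloprotease known to cleave laminin-332, fell 1.27-fold under the combination and 1.52-fold after heteronemin. ST14, the membrane serine protease matriptase, fell to 637.7 normalized counts under the combination and 640.2 after heteronemin, against 995.4 in control. The urokinase gene PLAU fell 1.19-fold after tetrac, for which the authors' deposited table gives p = 0.04, and was not called in either heteronemin group. MMP2 and MMP9, at the floor in control, were not called. Of these 5 measured proteases, 0 rose and 2 fell under the combination, 0 rose and 2 fell after heteronemin, and 0 rose and 1 fell after tetrac. The shares of all tested genes called lower were 14.1%, 15.9% and 0.98% in that order, and those called higher 8.16%, 11.2% and 0.28%, and nothing is read from counts over 5 genes.

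Which panel genes had a pattern most like each of the 5 was judged by the Euclidean distance over the 3 log2 ratios against control, among up to 355 well-measured genes. LAMA3 and LAMB3 shared SNAI1, the repressor of E-cadherin transcription, and POPDC3, a membrane protein of the Popeye family, among their 3 nearest genes. SNAI1 lay at a distance of 0.44 from LAMB3 and 0.38 from LAMA3, and POPDC3 at 0.30 from LAMA3 and 0.60 from LAMB3. The haem oxygenase HMOX1 was the other gene near LAMB3, at 0.56. COL7A1 was nearest to COL1A1, a chain of type I collagen, at 0.10, then to the peptide hormone gene ADM2 at 0.16. COL1A1 was also near LAMA3, at 0.39. The means of COL1A1, ADM2 and HMOX1 were under 100 in control and after tetrac. They thus passed the level minimum only through both heteronemin groups, and their likeness to genes higher in these groups is partly built into the filter. ITGB4 lay within 0.07 of the proteoglycan gene VCAN and the transcription factors GTF2I and NFAT5, and LAMA5 within 0.06 of the tight junction gene OCLN, the co-chaperone BAG2 and ITGA3. Among the 5 genes, LAMA3 and COL7A1 were the closest pair, at 0.32, LAMA3 and LAMB3 lay 0.81 apart, and LAMB3 and ITGB4 were the most distant, at 3.12. The gene nearest to LAMB3 was farther from it than the nearest gene was from any of the other 4. The distances rest on 3 ratios that share the control mean, and they say nothing of shared control of these genes.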

How the data were processed

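Total RNA of 12 HCT-116 samples was counted on the nCounter PanCancer Progression panel. Normalization was done by the authors in nSolver 4.0, per the series' design text, by a positive control factor and a biological step. The authors deposited 3 tables, each with a normalized signal (the group mean) for 1 treatment and for control. The authors deposited a score, the signed fold change, which differed from the quotient of both means by at most 0.0051. For each gene the authors deposited a p-value to 2 decimals, and the test behind it is not given in the sources used here. Raw depth is unknown. Whether samples came from separate cultures is not stated, so p-values may measure technical spread.

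From these tables log2 ratios of the means were computed, and a gene was called at the authors' unadjusted p under 0.05. Benjamini-Hochberg adjustment ran over all genes of a table. The members, gene lists and alternatives were chosen with earlier results of these data known. Named genes are the 5 members, called members of 5 lists, uncalled laminin and integrin chains, and the 3 genes nearest to each member; markers, other uncalled list genes and JUN are named as context. Of the lists, 1 gene is not reported here and is left out of their counts. Promoter letters come from RefSeq, GRCh38.p14; the tables name no build. All 5 symbols matched RefSeq by accession. The counting was tested on simulated data. Python 3.11.15, pandas 2.3.3 and numpy 2.4.6 were used.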

Additional observations from a re-analysis of the deposited data

How the results depend on the processing

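The 15 log2 ratios of the 5 genes were recomputed under 5 other settings, of which 71 of 75 values kept their sign. The exceptions were all LAMA5 after heteronemin, which turned to 0.0503 when centred on housekeeping genes, to 0.158 when centred on genes at a level of 100 or more, and to 0.0628 when set against the 51 genes nearest in mean level or, added after seeing the data, in control level. LAMB3 relative to ITGB4 after tetrac turned to 0.0187 with a pseudocount of 20. Against neighbours in control level, the differences of LAMA3, COL7A1 and LAMB3 from ITGB4 shrank but kept their sign in both heteronemin groups. The counts of called genes depended on the rule. For the combination, against 153, they were 91 at p of 0.01 or less, 48 and 0 after adjustment of the printed and of the largest possible p, and 69 at 1.5-fold. For heteronemin, against 191, they were 85, 41, 0 and 95, and for tetrac, against 9, they were 0 under each of these rules. Of the 5 genes, the combination kept 3 at p of 0.01 or less, 2 and 0 after the adjustments and 3 at a level of 100 or more. Heteronemin kept 2, 0 and 2 under both adjustments and the level minimum, and tetrac 0 under both adjustments, the stricter p and the fold minimum. The level minimum leaves out LAMA3 and COL7A1 by construction. No paired analysis was possible because the tables hold group means, and leaving out a replicate could not be run for the same reason. The floor of 33 limits what can be said of LAMA3 and COL7A1, whose control means lie close above it.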
